A study of Mus musculus with 8 samples.

Results

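The Rhox homeobox family was examined in mouse embryonic stem cells (ESCs) depleted of *L3mbtl2*, a subunit of the PCGF6-PRC1 repressive complex. Members were taken by name: a probe belonged to the family when its RefSeq accession mapped to *Rhox1*, *Rhox2a*, *Rhox4b*, *Rhox5*, *Rhox6*, *Rhox9*, *Rhox10*, *Rhox11*, *Rhox12* or *Rhox13*. Of these 10 genes 7 had a probe, 1 each, among 19751 genes named on the array. No probe matched *Rhox2a*, *Rhox4b* or *Rhox13*. The samples were VV3 ESCs, a male mouse line that carries a *Vasa*::Venus reporter transgene and grows on inactivated STO feeder fibroblasts in serum and LIF. The reporter reads out *Vasa* (*Ddx4*), a germ cell gene. One group received siRNA against *L3mbtl2* (*L3mbtl2*-KD ESCs, 4 samples) and the other the non-silencing AllStars siRNA (control ESCs, 4 samples), with a one-colour Agilent array for each sample. The methods state that *Vasa*-positive cells were purified by FACS. They describe the comparison as one of *Vasa*-positive knockdown cells with VV3 ESCs given AllStars siRNA, and name no sort for the latter in that sentence. For the array controls they do not say clearly whether cells were sorted, so sorting and knockdown cannot be told apart. The methods call the replicates biological, and p-values measure the spread between these samples.

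The Rhox genes are a family of homeobox transcription factor genes that lie together on the mouse X chromosome and act in the testis, ovary and placenta. They are grouped by position into subclusters alpha, beta and gamma, and the *Rhox2*, *Rhox3* and *Rhox4* genes of subcluster alpha were multiplied in rodents into near-identical copies. Many of the genes are held silent in embryonic cells with DNA methylation, whereas *Rhox5* is expressed in ESCs and extraembryonic tissues. In the RefSeq table of the mouse assembly GRCm38.p6, the cluster from *Rhox1* to *Rhox13* covered chrX:37213804-38129966, and 42 symbols began with Rhox, 33 of them protein-coding.

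Levels below are log2 of the spot intensity minus the 75th percentile of the array, called normalized log2 intensity. Besides controls there were 43020 spots per array, with a 75th percentile of 791 to 1038, and 59.5 to 66.6% of spots were well above background. The number of arrays limits the precision. The siRNA target was measured first. *L3mbtl2* (NM_145993) was at 0.27, -0.18, -0.21 and -0.31 in control ESCs 1 to 4 and at -1.45, -1.26, -1.58 and -1.73 in *L3mbtl2*-KD ESCs 1 to 4. All knockdown arrays lay below all control arrays, with a log2 fold change of -1.40 and a standard error of 0.15 (limma, Benjamini-Hochberg adjusted p = 0.00095), so the target followed the labels.

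Among the members with a probe, 1 rose, 1 fell and 3 did not pass the threshold, while *Rhox11* and *Rhox12* were too dim to be tested. *Rhox5* fell 3.61-fold in *L3mbtl2*-KD ESCs and *Rhox10* rose 2.66-fold. A gene was called when a probe changed more than 2-fold with a limma adjusted p under 0.05, over 23505 probes whose signal stood well above background throughout one group or both. By this rule 1 of the 5 members tested was up-regulated, against 2.49% of all 13641 genes tested (340 genes), and 1 of 5 was down-regulated, against 3.19% of all genes (435 genes). The plot of the members by array shows each value.

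**Figure D1:**
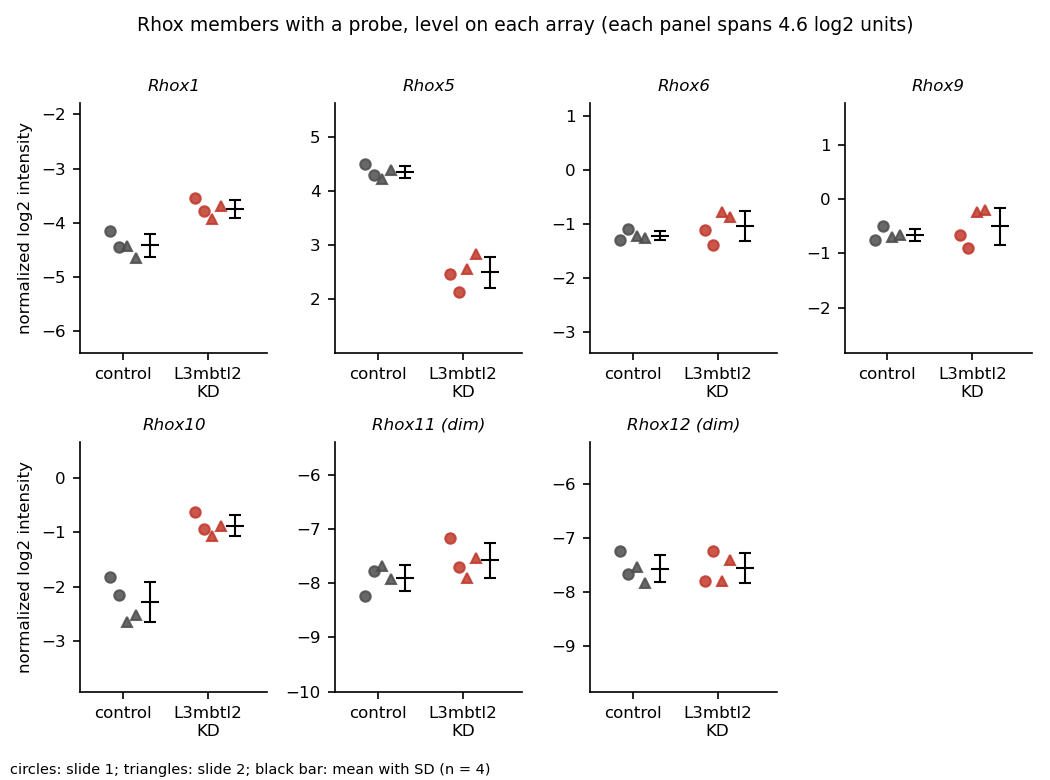
Normalized log2 intensity (log2 of spot intensity minus the 75th percentile of the array) of the 7 members with a probe, by group, 1 point per array, with circles for slide 1, triangles for slide 2 and a bar for the mean with SD (n = 4). The *L3mbtl2*-KD values lie between 2.13 and 2.84 for *Rhox5*, below every control array, and between -1.06 and -0.62 for *Rhox10*, above every control array. *Rhox11* and *Rhox12* were not well above background on any array.

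*Rhox5*, first known as Pem, belongs to subcluster beta and is the member best known from ESCs, trophoblast, primitive endoderm and Sertoli cells. Its gene lies at chrX:37754608-37808878. The RefSeq promoter window, placed at the outer start of that interval, is shown because the gene had the only fall in the family that passed the test. Whether *Rhox5* transcripts in these ESCs begin there was not measured. The 250 bases before the start of the gene interval are at chrX:37754358-37754607 on the plus strand, with each CpG, the site of DNA methylation, in capitals.
Rhox5: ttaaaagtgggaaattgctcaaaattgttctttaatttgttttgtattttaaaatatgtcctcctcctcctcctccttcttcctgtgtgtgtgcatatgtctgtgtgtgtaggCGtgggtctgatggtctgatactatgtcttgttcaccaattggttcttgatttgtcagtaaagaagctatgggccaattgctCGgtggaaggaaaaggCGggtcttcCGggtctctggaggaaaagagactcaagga

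The normalized log2 intensity of *Rhox5* (NM_008818) was 4.50, 4.30, 4.23 and 4.38 in control ESCs 1 to 4 and 2.46, 2.13, 2.57 and 2.84 in *L3mbtl2*-KD ESCs 1 to 4. The groups did not overlap: the lowest control array stood 1.39 above the highest knockdown array, and the knockdown arrays were more spread (SD 0.29) than the controls (SD 0.11, n = 4 each). The log2 fold change was -1.85 with a standard error of 0.15 (limma adjusted p = 0.00026), and a two-sided exact permutation test gave p = 0.0286, the smallest that 4 against 4 arrays allow. That test exchanges all 8 arrays. Exchanged only within replicate numbers, which pair the samples, an exact permutation test added after the data had been seen gave p = 0.125 for *Rhox5*, *Rhox10*, *Rhox1* and the *Rhox2* probes alike, the smallest that 4 pairs allow, so such a test cannot reach 0.05. Among 13641 genes it ranked 88 from the lowest log2 fold change. *Rhox5* was still bright in the knockdown, at deposited intensities of 3470 to 6652, against 16837 to 19823 in the controls. It was lower on both slides, with a log2 fold change of -2.10 within slide 1 and -1.60 within slide 2. The difference between the slides, a test added after the data had been seen, was 0.50 (limma adjusted p = 0.9999).

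Some markers of other cell types also fell in *L3mbtl2*-KD ESCs. Over all genes, counting the probe with the highest mean signal of each, 2.36% were up-regulated and 2.94% were down-regulated. These are the shares to set beside the counts of each marker list. Of the primitive endoderm markers, 7 of the 12 tested were down-regulated and none was up-regulated in limma, or more than 2-fold higher at an unadjusted p under 0.05, and their median log2 fold change was -1.30 (-1.20 with the gene known only by a bound set at it), against -0.011 over all genes. Of these 7, *Sox17*, *Foxa2*, *Pdgfra* and *Dab2* missed the background level on some or all knockdown arrays, so they entered the test through the group where they are high. Over the 8 markers well above background on all arrays, 3 were down-regulated and the median was -0.74. The median was -1.18 within slide 1 and -1.43 within slide 2, and with normexp, another background correction, it was -0.74 with 3 genes down-regulated. Their summed level, in units of the array's 75th percentile, was 98.7 to 113 on the control arrays and 62.7 to 88.3 on the knockdown arrays. The *Sparc* probe, the brightest, made up 82.8 to 94.1% of the sum and was not called, and without it, a sum added after the data had been seen, the range was 14.4 to 18.7 in controls and 3.71 to 6.25 in the knockdown. All 12 were well above background on some array, and *Lama1*, measured on all arrays, had a log2 fold change of -2.18 (-2.17 with normexp). *Sox17* was well above background on 3 of 4 knockdown arrays, with a fitted value of -2.07 (-1.10 with normexp). *Dab2* was so on 1 of 4, and its fall, fitted at -2.53 and at -0.95 with normexp, has no measured size. *Foxa2*, above background on no knockdown array, was at least 2.45-fold lower, and its log2 fold change with normexp was -0.41 (limma adjusted p = 0.0762). Of the fibroblast markers, listed for the STO feeder cells, 8 of 14 tested fell and 1 rose, with a median of -1.83 (-1.33 within slide 1, -2.20 within slide 2, and -0.96 with normexp). Over the 10 well above background on all arrays, 5 fell and 1 rose, with a median of -0.97. Their summed level was 52.3 to 63.7 in controls and 27.4 to 36.6 in the knockdown. The *Fn1* probe made up 71.2 to 86.3% of it, and without it the sum was 7.17 to 16.1 and 6.02 to 6.67. Of the 16 with a probe 2 were not well above background on any array, and *Dcn* and *Col3a1* were well above background on all control arrays and on none of the knockdown arrays. *Dcn* was at least 12.1-fold lower and *Col3a1* at least 7.81-fold lower, and *Thbs1*, above background on 1 of 4 knockdown arrays, fell by an amount that was not measured (fitted at -3.56). With normexp, which adds an offset of 50 to each signal and so shrinks the folds of dim probes, the fitted log2 fold changes of these genes were -1.88, -1.55 and -1.37, and a bound holds for the main setting only. These bounds are ratios of group means in which every array of the dim group was given a floor, namely the weakest signal there of any probe well above background, or the measured signal if that was stronger.

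The trophoblast genes, which mark another tissue that expresses *Rhox5*, had a median log2 fold change of -0.48 over 17 genes tested, with 1 up-regulated (*Esx1*, 1.39) and 2 down-regulated (*Krt19*, -1.63, and *Plet1*, -1.40, the latter -0.88 with normexp). Among all genes the shares were 2.36% and 2.94%. The median was -0.36 within slide 1, -0.46 within slide 2, -0.25 with normexp, where 1 gene was down-regulated, and -0.24 over the 13 genes well above background on all arrays. Their summed level was 62.6 to 114 in controls and 50.9 to 57.2 in the knockdown, and 3 of 23 were not well above background on any array. The *Gcm1* probe made up 62.6 to 86.4% of that sum and was not called (log2 fold change -0.68, limma adjusted p = 0.097), and without it the groups overlapped, at 13.6 to 22.4 in controls and 11.7 to 19.0 in the knockdown, although the sum was lower in the knockdown in 4 of 4 replicate numbers. Of the 12 embryonic stem cell markers none was called in limma, 9 were lower and 3 higher, and the median was -0.25 (-0.29 and -0.22 within the slides). Only *Nanog* was more than 2-fold lower at an unadjusted p under 0.05, at -1.32 (limma adjusted p = 0.096), with -2.11 within slide 1 and -0.52 within slide 2. *Klf4* (-0.70, limma adjusted p = 0.027) and *Dppa4* (0.31, limma adjusted p = 0.030) changed less than 2-fold. The summed level of the list was 291 to 330 in controls and 274 to 329 in the knockdown. The *Dppa5a* probe made up 44.3 to 58.6% of it, and without it the sum was 142 to 171 and 117 to 144. Both sums were lower in the knockdown in 4 of 4 replicate numbers, a count added after the data had been seen, as was that for the trophoblast sum. Fewer cells of a type and less RNA per cell cannot be told apart in these samples. A sort for *Vasa*-positive cells selects for the Venus transgene, which belongs to the VV3 line and not to the STO cells, so it would remove feeder cells from a sample sorted in that way. Whether the control samples of the arrays were sorted is not clear. For bisulfite sequencing, the methods describe control ESCs purified as *Vasa*::Venus-negative, and such a sort would not select against STO cells. The part of endoderm, feeder or trophoblast cells in the lower *Rhox5* signal was not tested.

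**Figure D2:**
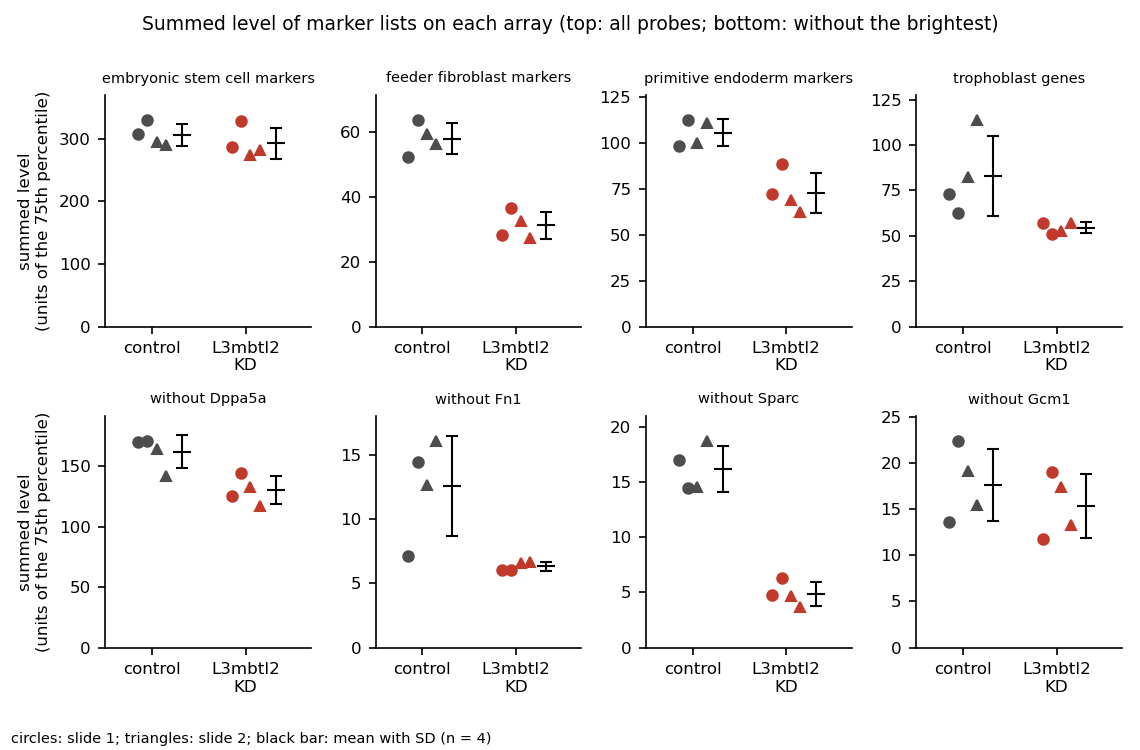
Summed level of 4 marker lists on each array, in units of the array's 75th percentile of intensity, over all probes (top) and without the brightest probe of the list (bottom), with circles for slide 1, triangles for slide 2 and a bar for the mean with SD (n = 4). The feeder fibroblast sum is 52.3 to 63.7 on control arrays and 27.4 to 36.6 on knockdown arrays, the embryonic stem cell sums of the groups overlap in both rows, and the trophoblast sums overlap without *Gcm1*, while these sums are lower in the knockdown in 4 of 4 replicate numbers.

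The other listed members in subcluster beta, *Rhox6* and *Rhox9*, are known from the placenta and from germ cells, and neither was called. *Rhox6* (NM_008955, chrX:37827055-37829857) was at -1.29, -1.10, -1.22 and -1.26 in control ESCs 1 to 4 and at -1.12, -1.39, -0.78 and -0.87 in *L3mbtl2*-KD ESCs 1 to 4. *Rhox9* (NM_023894, chrX:37899097-37901770) was at -0.75, -0.50, -0.70 and -0.67 in controls and at -0.66, -0.90, -0.24 and -0.20 in the knockdown. For both genes the controls were tight, and the knockdown arrays spread to both sides of them, with the knockdown arrays of slide 2 high and that of replicate 2 low. They overlapped, and the log2 fold change was 0.18 for *Rhox6* (standard error 0.14, limma adjusted p = 0.39) and 0.15 for *Rhox9* (standard error 0.16, limma adjusted p = 0.55). *Rhox6* was at -0.06 within slide 1 and 0.42 within slide 2, and *Rhox9* at -0.16 and 0.46. The difference between slides was 0.47 for *Rhox6* and 0.62 for *Rhox9*, and neither passed the test (limma adjusted p = 0.9999 for each). Before adjustment the limma p was 0.043 for *Rhox6* and 0.016 for *Rhox9*. The slides also differ in scan day, and each holds both groups.

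*Rhox10* stands in subcluster gamma and is known for a role in the formation of spermatogonial stem cells in mice. It lies at chrX:38066475-38071688, and its promoter window is given because it was the member that rose. The upstream bases, chrX:38066225-38066474 on the plus strand, hold 8 CpGs, shown in capitals.
Rhox10: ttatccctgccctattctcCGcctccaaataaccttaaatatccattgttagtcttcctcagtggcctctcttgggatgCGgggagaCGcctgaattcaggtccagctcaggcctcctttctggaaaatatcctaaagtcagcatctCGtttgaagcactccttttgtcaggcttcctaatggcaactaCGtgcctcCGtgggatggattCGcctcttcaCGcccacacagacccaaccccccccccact

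*Rhox10* (NM_001024850) was at -1.83, -2.16, -2.65 and -2.52 in control ESCs 1 to 4 and at -0.62, -0.94, -1.06 and -0.88 in *L3mbtl2*-KD ESCs 1 to 4. All 4 knockdown arrays were above all control arrays, with 0.77 between the nearest values, and in both groups the first replicate was the highest. The mean was -2.29 ± 0.37 (SD, n = 4) in controls and -0.88 ± 0.19 (SD, n = 4) in the knockdown. The log2 fold change was 1.41 (standard error 0.19, limma adjusted p = 0.0021), and a two-sided exact permutation test gave p = 0.0286. With normexp background correction it was 1.11. The rise was 1.21 within slide 1 and 1.61 within slide 2. It ranked 211 from the highest log2 fold change among 13641 genes.

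The neighbours of *Rhox10* in subcluster gamma could not be compared. *Rhox11* (NM_198598, chrX:38076598-38085139) was at normalized log2 intensities of -8.24 to -7.68 in controls and -7.91 to -7.16 in the knockdown. *Rhox12* (NM_001025083, chrX:38104062-38110907) was at -7.82 to -7.24 and -7.79 to -7.23. Neither was well above background on any array, and their deposited intensities were 2.88 to 5.80, so no fold is given. *Rhox13* (chrX:38120840-38129966), a gene of germ cells in the fetal gonad, had no probe.

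*Rhox1*, at the other end of the cluster in subcluster alpha (chrX:37213804-37222258), was measured at low intensity. It was at -4.15, -4.44, -4.43 and -4.66 in control ESCs 1 to 4 and at -3.54, -3.79, -3.93 and -3.69 in *L3mbtl2*-KD ESCs 1 to 4 (NM_001025084). The groups did not overlap, although the gap between the nearest arrays was only 0.22. The log2 fold change was 0.68 (standard error 0.13, limma adjusted p = 0.0095), or 1.60-fold, which passed the test on p but is under the 2-fold threshold, and the two-sided exact permutation test gave p = 0.0286. A rise with an adjusted p under 0.05 whatever its size was found in 9.36% of genes (1277), and a fall in 10.8% (1467), counting the probe with the highest mean signal of each gene. The log2 fold change of *Rhox1* was 0.63 and 0.73 within the slides, 0.37 with normexp and 0.83 with quantile normalization. Its 250 upstream bases, chrX:37222259-37222508 on the minus strand, are printed for contrast with the other promoters, since they hold no CpG.
Rhox1: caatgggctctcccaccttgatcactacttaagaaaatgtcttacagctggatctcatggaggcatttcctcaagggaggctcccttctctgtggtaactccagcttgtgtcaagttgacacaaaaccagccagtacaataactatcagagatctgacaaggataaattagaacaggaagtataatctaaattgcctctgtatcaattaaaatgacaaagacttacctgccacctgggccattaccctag

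*Rhox2a* and *Rhox4b* stand for 2 sets of copies in subcluster alpha. RefSeq listed 8 protein-coding *Rhox2* copies, of which 3 had a probe, 7 *Rhox3* copies, of which 4 had one, and 8 *Rhox4* copies, of which 3 had one. Probe sequences were not used here, and a probe may not separate near-identical copies, so each value below is that of the probe's named copy with this uncertainty. Across the family, 32 Rhox symbols outside the list gave 12 genes with 17 probes, and 7 genes with 9 probes were tested. Counting any probe, 3 of these 7 were up-regulated, *Rhox2c*, *Rhox2e* and *Rhox2h*, against 2.49% of all genes, and none was down-regulated in limma, against 3.19%, nor more than 2-fold lower at an unadjusted p under 0.05.

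The upstream sequences of the *Rhox2* copies were compared. RefSeq gave a window for 7 of the 8, and over their 21 pairs the 250 upstream bases of one could be placed in the window of the other with 1 to 26 base edits (median 12). A shift between window starts adds to such counts. *Rhox2a* against *Rhox2b* took 22 edits, while each of them took 1 against *Rhox2c*. The 250 bases before the start that RefSeq's promoter window gives for *Rhox2a* could be placed in the window of *Rhox2c* with 1 base edit and in that of *Rhox2h* with 11, and they are shown because the *Rhox2* probes moved together. They lie at chrX:37244742-37244991 (*Rhox2a*, plus strand), chrX:37453409-37453658 (*Rhox2c*, plus strand) and chrX:37673278-37673527 (*Rhox2h*, minus strand), with CpGs in capitals. The start of the *Rhox2c* window differs from that of the gene interval given below for *Rhox2c*, and 179 of its 250 bases lie inside that interval.
Rhox2a: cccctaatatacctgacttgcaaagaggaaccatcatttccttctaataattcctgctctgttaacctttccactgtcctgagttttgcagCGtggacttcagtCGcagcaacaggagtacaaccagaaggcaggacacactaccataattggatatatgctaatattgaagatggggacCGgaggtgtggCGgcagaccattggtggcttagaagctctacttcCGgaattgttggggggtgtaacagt
Rhox2c: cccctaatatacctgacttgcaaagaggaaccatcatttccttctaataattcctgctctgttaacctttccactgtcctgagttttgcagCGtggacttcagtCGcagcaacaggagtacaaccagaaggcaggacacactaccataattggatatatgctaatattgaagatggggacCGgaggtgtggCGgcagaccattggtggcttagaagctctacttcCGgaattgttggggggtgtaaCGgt
Rhox2h: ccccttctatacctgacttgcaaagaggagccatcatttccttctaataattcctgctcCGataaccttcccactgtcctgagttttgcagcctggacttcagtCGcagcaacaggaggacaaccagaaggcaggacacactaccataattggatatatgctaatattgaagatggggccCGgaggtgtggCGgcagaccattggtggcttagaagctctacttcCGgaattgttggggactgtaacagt

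*Rhox2c* (NM_001099318, chrX:37453480-37458396) was at -4.05, -4.25, -5.17 and -4.46 in control ESCs 1 to 4 and at -1.33, -1.88, -2.42 and -1.49 in *L3mbtl2*-KD ESCs 1 to 4. Replicate 3 was the lowest of its group on both sides, and 1.63 separated the groups. The log2 fold change was 2.71 (standard error 0.30, limma adjusted p = 0.00098), or 6.53-fold, which ranked 40 from the highest. It was 2.55 and 2.86 within the slides and 1.73 with normexp.

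*Rhox2h* (NM_001100465, chrX:37668997-37673277) had a pair of probes. The probe well above background on all 8 arrays was at -3.20, -3.05, -3.75 and -3.43 in controls 1 to 4 and at -0.77, -1.37, -1.76 and -0.95 in the knockdown, with a log2 fold change of 2.14 (standard error 0.24, limma adjusted p = 0.0010), and 1.64 with normexp. The other probe was not well above background on any control array and was so on all 4 knockdown arrays, so it entered the test through the group where it was high. It was at least 1.89-fold higher (limma adjusted p = 0.0014), and with normexp its log2 fold change was 0.61.

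*Rhox2e* (NM_001085348, chrX:37530322-37541809) was at -3.63, -3.33, -3.84 and -3.28 in controls 1 to 4 and at -1.71, -2.16, -2.58 and -1.82 in the knockdown. Among the knockdown arrays replicate 1 was the highest, followed by 4, 2 and 3, in this probe and also in those of *Rhox2c* and *Rhox2h*. The log2 fold change was 1.45 (standard error 0.21, limma adjusted p = 0.0031), and it was 1.004 with normexp, next to the threshold. It was 1.55 within slide 1 and 1.35 within slide 2, and either slide alone gave no call (limma adjusted p = 0.0954 and 0.0747). For *Rhox2c*, *Rhox2e* and the *Rhox2h* probe measured on all 8 arrays the knockdown and control arrays did not overlap, and the two-sided exact permutation test gave p = 0.0286 for each. The plot of the other Rhox probes shows them beside those that did not pass the test.

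**Figure D3:**
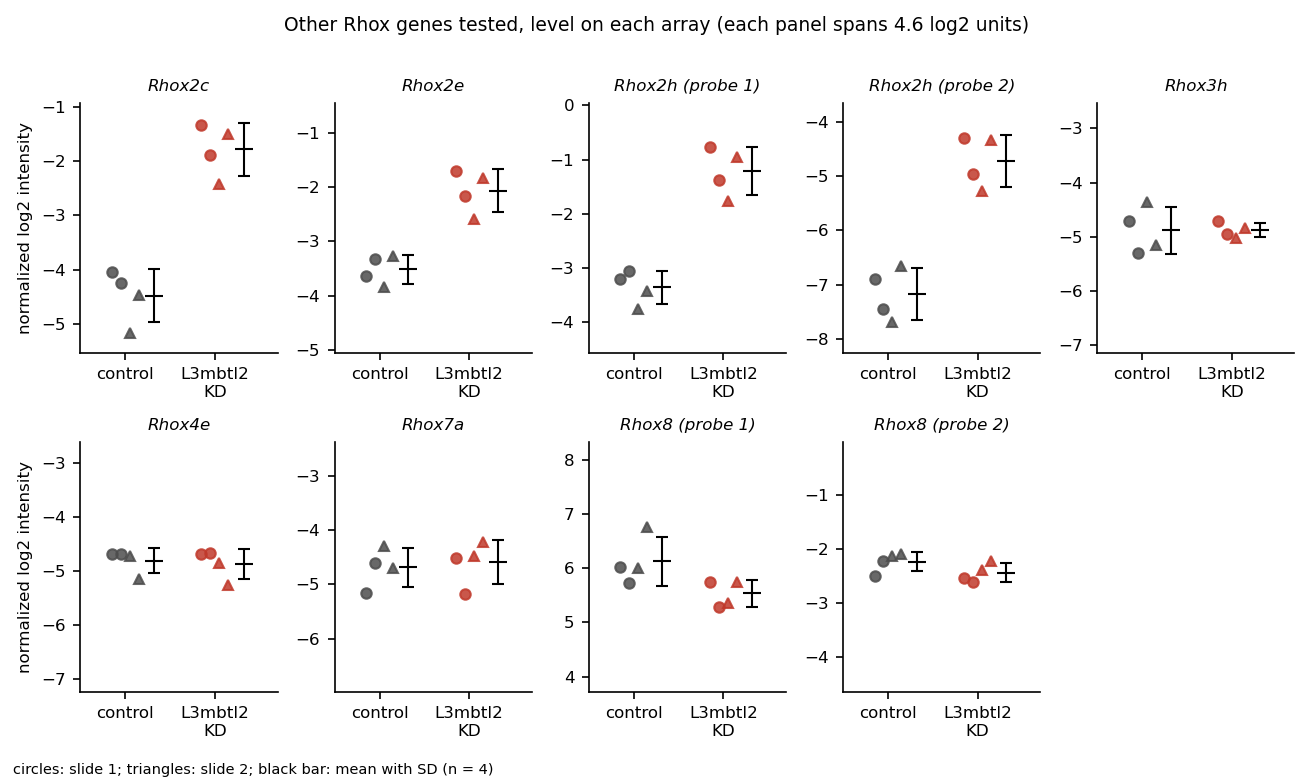
Normalized log2 intensity of the 9 tested probes of Rhox genes outside the list, by group, 1 point per array, with circles for slide 1, triangles for slide 2 and a bar for the mean with SD (n = 4). The knockdown arrays of *Rhox2c*, *Rhox2e* and *Rhox2h* lie above all control arrays, and the arrays of *Rhox3h*, *Rhox4e*, *Rhox7a* and *Rhox8* overlap between groups.

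The copies of *Rhox3* and *Rhox4* gave no call. The *Rhox4e* probe (NM_201236, chrX:37557412-37562283) was at -5.15 to -4.68 in controls and -5.27 to -4.66 in the knockdown, a log2 fold change of -0.06 (standard error 0.17, limma adjusted p = 0.84) that was 0.07 with normexp and 0.13 with quantile normalization. *Rhox3h* (NM_001114157) was at -5.30 to -4.37 and -5.01 to -4.71, with a log2 fold change of 0.01 (standard error 0.20, limma adjusted p = 0.98). *Rhox7a* (NM_001025086) had 0.10 (standard error 0.24, limma adjusted p = 0.82) in the probe tested. Not every array was well above background for *Rhox3h* (3 of 4 controls) and *Rhox4e* (3 of 4 knockdown arrays). *Rhox3a*, *Rhox3c*, *Rhox3f*, *Rhox4a* and *Rhox4g* had probes that missed the background level on 1 or more arrays in both groups and were not tested.

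*Rhox8*, a gene of Sertoli and granulosa cells, was measured by a pair of probes (NM_001004193). The first was at 6.01, 5.72, 6.01 and 6.76 in controls 1 to 4 and at 5.75, 5.29, 5.36 and 5.75 in the knockdown, and the groups overlapped. The second was at -2.49, -2.21, -2.12 and -2.10 in controls 1 to 4 and at -2.54, -2.61, -2.38 and -2.21 in the knockdown. The probes thus disagreed on the level of *Rhox8*, which they do not settle. The log2 fold change was -0.59 (standard error 0.22, limma adjusted p = 0.10) for the first probe, and -0.21 (standard error 0.12, limma adjusted p = 0.29) for the second. With the replicate number as a block the first had an adjusted p of 0.0224 in limma, still at less than 2-fold, and the second 0.0729. The 7 Sertoli and Leydig cell markers tested gave no call in limma, and none more than 2-fold at an unadjusted p under 0.05, with a median of -0.06 (-0.06 and -0.08 within the slides). Their sums were 9.71 to 10.5 in controls and 7.32 to 9.02 in the knockdown, and 4.50 to 6.44 and 4.53 to 6.68 without the *Clu* probe, which made up 21.5 to 55.6%, with 2 of 13 not well above background on any array.

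Along the cluster, the probes that rose and the probe that fell were interspersed with probes that did not pass the test. From *Rhox1*, the order of the tested genes was *Rhox2c* at 240 kb, *Rhox2e*, *Rhox4e*, *Rhox3h*, *Rhox2h* at 455 kb, *Rhox5* at 541 kb, *Rhox6*, *Rhox7a*, *Rhox8*, *Rhox9* and, at 853 kb, *Rhox10*. *Rhox5* lay between *Rhox2h*, which rose, and *Rhox6*, which did not pass the test.

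**Figure D4:**
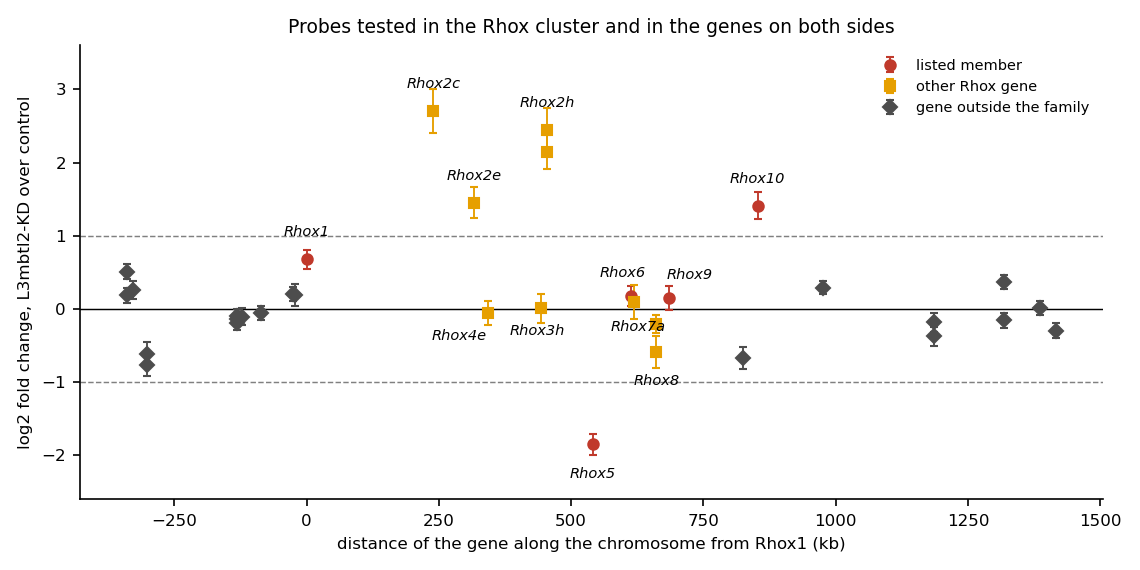
Log2 fold change (*L3mbtl2*-KD over control, bars for standard error) of each tested probe against the distance of its gene from *Rhox1* in kb, for listed members, other Rhox genes and genes outside the family. *Rhox2c*, *Rhox2e*, *Rhox2h* and *Rhox10* lie above the 2-fold line and *Rhox5* below it, while no probe of a gene outside the family passes either line.

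The genes on both sides of the cluster were measured as a local comparison. Of the 10 nearest named protein-coding genes on each side, 13 were tested, none was called in limma or changed more than 2-fold at an unadjusted p under 0.05, and their median log2 fold change was 0.02 (0.03 within slide 1, -0.0017 within slide 2, and -0.02 with normexp). On the *Rhox1* side the values were 0.18 for *Ube2a*, 0.26 for *Nkrf*, -0.62 for *Septin6*, -0.13 for *Rpl39*, -0.10 for *Upf3b*, -0.05 for *Nkap*, 0.20 for *Ndufa1* and 0.19 for *Rnf113a1*. *Septin6* had a limma adjusted p of 0.041, and its other probe -0.76 (limma adjusted p = 0.013), while the other *Ube2a* probe had 0.51 (limma adjusted p = 0.010). With the replicate number as a block 8 of the 13 had an adjusted p under 0.05 in limma, against 2 without it, and over all genes this share was 46% against 20.1%. Beyond *Rhox13* they were 0.29 for *Zbtb33*, -0.37 for *Lamp2*, 0.37 for *Cul4b* (limma adjusted p = 0.024), 0.02 for *Mcts1* and -0.30 for *C1galt1c1*. The other *Cul4b* probe had -0.16, and *Mcts1* was -0.02 with normexp and with quantile normalization. Within the cluster, the non-Rhox gene *Btg1c*, named after its value was seen, had -0.67 (limma adjusted p = 0.017).

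Promoter windows of 300 bases, from 250 before to 50 after the gene start, were given by RefSeq for 28 Rhox symbols and 8 of the 10 members. *Rhox6* and *Rhox9* had no entry. The window of *Rhox10* held 9 CpGs, those of *Rhox2a* and *Rhox2c* 8 and 9, that of *Rhox5* 5 and that of *Rhox1* none, against a median of 7 over all 32851 windows (quartiles 3 and 20). The counts of the called genes thus lay within the quartiles of all promoters. The *Rhox4* copies had 10 to 12 CpGs and the *Rhox3* copies 2 to 4.

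The windows were searched on both strands for the E-box CACGTG, which MAX binds, for the E2F motif GCGGGAA, and for the T-box motif AGGTGTGA. The E-box reads the same on both strands. An E-box was in 5 of 7 *Rhox4* windows and in no other Rhox window, against 7.15% of all windows. The *Rhox4* windows are near-identical, with 0 to 22 base edits over their 21 pairs (median 8), so these 5 are not independent counts. That of *Rhox4a* began inside the place of the site, and all 250 of its upstream bases lay inside the gene interval. The E-box was in the window of *Rhox4b*, 224 bases before the start, and in that of *Rhox4e*, 196 before. None was in the 7 *Rhox2* windows or in those of *Rhox5* and *Rhox10*. The stretches around it, with the motif in capitals, are given because the *Rhox4e* probe was measured, at chrX:37432258-37432287 for *Rhox4b* and chrX:37557204-37557233 for *Rhox4e*, both on the plus strand.
Rhox4b: aaggtgggtcgcCACGTGtgcatccatacc
Rhox4e: gaggtgggtcgcCACGTGtgcatccatacc
The E2F motif was in 1 Rhox window, of *Rhox11-ps2*, and in 4.60% of all windows, and the T-box motif was in no Rhox window and in 1.28% of all. These matches describe the letters in the windows only.

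Genes whose profile over the 8 arrays lay closest to that of a called member, by root mean square difference of probe-centred log2 values among 17650 named probes outside the family, were *Fam111a* (0.23), *Bdh2* (0.24) and *Syce1* (0.24) for *Rhox5*. For *Rhox10* they were *Gm10439* (0.085), *Gm15085* (0.12) and *Mslnl* (0.13). *Fam111a*, *Bdh2* and *Syce1*, the last a gene of the synaptonemal complex, had log2 fold changes of -1.54, -1.60 and -1.54. *Gm10439*, *Gm15085* and *Mslnl* had 1.34, 1.31 and 1.23, which became 0.98 for *Gm15085* and 0.58 for *Mslnl* with normexp.

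Other germ-line genes give a scale for the changes in the family. Of 28 germ-line genes known for promoter methylation that were tested, 20 rose and 3 fell, with a median log2 fold change of 1.40 (1.37 with 1 gene at its bound; 1.25 within slide 1 and 1.60 within slide 2), against 2.36% and 2.94% of all genes by the probe that stands for a gene (322 and 401 genes). Over the 26 well above background on all arrays, 18 rose and 3 fell, with a median of 1.37. *Ddx4* (2.83) is the gene whose reporter was used to sort the knockdown cells, and without it 19 of 27 rose and the median was 1.40. *Tex101* (8.21) and *Ctcfl* (4.67, and 3.44 with normexp) had the largest changes among those that rose. *Asz1* came next by fitted value, but it was not well above background in any control, so its place in that order is not known, and it was at least 2.52-fold higher (log2 fold change 0.83 with normexp). *Fkbp6* (-2.06), *Syce1* and *Hormad1* (-1.17, and -0.96 with normexp) fell. Of 16 tested germ-line genes elsewhere on the X chromosome, 13 rose and none fell in limma or at an unadjusted p under 0.05 with more than 2-fold, with a median of 1.77 (1.45 and 1.78 within the slides). With normexp 8 rose and the median was 0.996. *Usp26*, *Nxf3*, *Tktl1*, *Xlr*, *Xlr5a* and *Pramel3* missed the background level on 1 or more control arrays and entered the test through the knockdown. Over the other 10 genes 8 rose, with a median of 1.60. *Taf9b* (3.17) and *Slx* (2.78, and 1.67 with normexp) had the largest changes among these. *Xlr*, not well above background on any control array, was at least 8.64-fold higher in the main setting, and its log2 fold change was 1.57 with normexp. *Tex11* and *Taf7l* are on both lists.

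Homeobox genes of related classes, primordial germ cell markers and chromatin genes were listed as well. The shares of all genes called up and down, 2.36% and 2.94%, apply beside their counts too. Of 18 other PRD-class and oocyte homeobox genes tested, 2 rose (*Duxbl1*, 1.53, and *Esx1*, an X-linked placental gene) and 1 fell (*Pax3*, -1.23, and -0.40 with normexp; it was well above background on 2 of 4 knockdown arrays), with a median of -0.13 (-0.20 and -0.16 within the slides) that was 0.01 with normexp. With the replicate number as a block *Hesx1*, at -1.48, was down-regulated as well (limma adjusted p = 0.00058, against 0.11 without the block). Of 10 primordial germ cell markers 1 rose, *Dppa3* (2.44), and 1, *Prdm1* (-1.27, limma adjusted p = 0.072), was more than 2-fold lower at an unadjusted p under 0.05 only, with a median of 0.09 (-0.09 and 0.18 within the slides), and their sums were 26.1 to 34.9 in controls and 25.1 to 35.6 in the knockdown. The *Ifitm3* probe made up 21.0 to 38.2% of them. *Loxl1* (1.01, and 0.89 with normexp) was the fibroblast marker that rose. In the DNA and H3K9 methylation machinery none of 19 genes was called in limma, nor was any more than 2-fold changed at an unadjusted p under 0.05, and the median was 0.01 (-0.07 and 0.05 within the slides). Of the 19 genes 2 had an adjusted p under 0.05 in limma (8 with the replicate number as a block, against the 20.1% and 46% of all genes given above), *Dnmt3l*, a cofactor of DNA methyltransferases, at 0.99 (limma adjusted p = 0.0024), next to the threshold, and *Ehmt2*, an H3K9 methyltransferase, at -0.35 (limma adjusted p = 0.015). Of 16 PCGF6-PRC1 subunits 1 was called, *L3mbtl2* itself, 5 had an adjusted p under 0.05 (7 with the block), and the median was 0.02 within the list as a whole and 0.02 and 0.04 within the slides. The 7 Rhox genes outside the list had a median of 0.10 (0.18 and 0.15 within the slides, 0.27 with quantile normalization, and 1.45 over the 5 well above background on all arrays), from 3 that rose and 4 that did not pass.

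**Figure D5:**
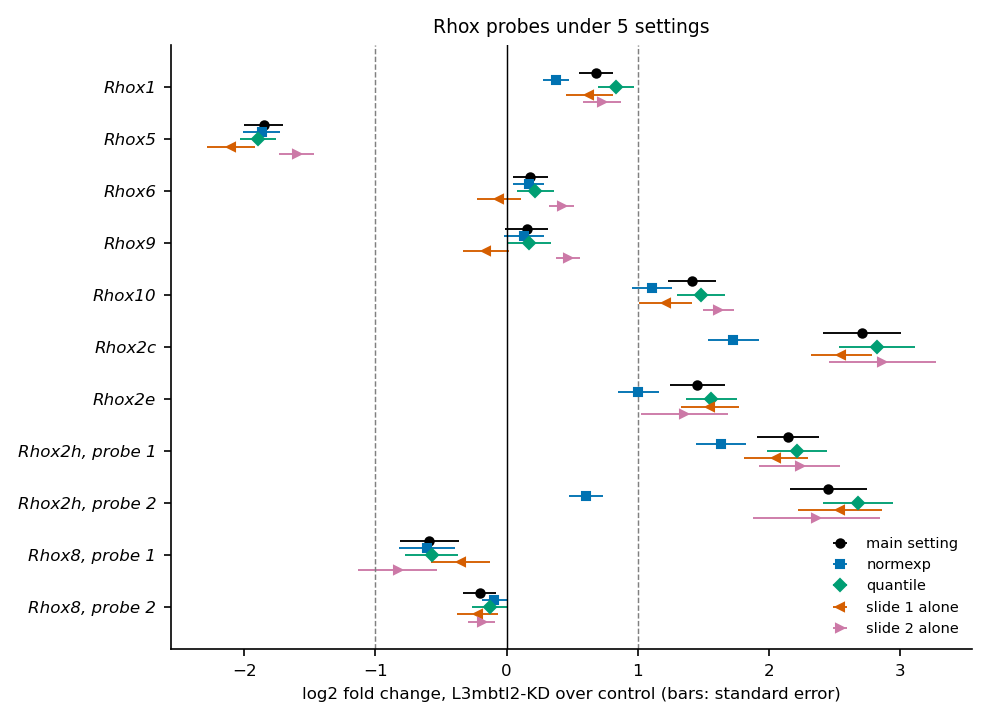
Log2 fold change (*L3mbtl2*-KD over control, bars for standard error) of 11 Rhox probes under 5 settings: the main one, normexp, quantile normalization, and each slide alone. *Rhox5* lies between -2.10 and -1.60 and *Rhox10* between 1.11 and 1.61 in all 5, and *Rhox6* and *Rhox9* change sign between the slides.

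The direction of *Rhox5* and *Rhox10* was the same in each setting tried, and the sizes are drawn in the plot of settings. Within slide 1, where 2 samples a group were compared, limma called 0 genes. At an unadjusted p under 0.05 with more than 2-fold, slide 1 gave 319 genes up and 371 down, with *Rhox10* and *Rhox5* as the members among them.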

How the data were processed

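Total RNA of 4 *L3mbtl2*-KD and 4 control samples was measured on one-colour Agilent arrays. The intensity values in the deposited scanner files came from Feature Extraction 10.7.3.1, per the file headers, in which the authors' scanner software had subtracted background. The authors also deposited a log2 table, shifted to the 75th percentile of each array, per the study's methods. That it was also centred on each probe's own median was found by comparison with the scanner values. Over 39242 probes its columns correlated at 0.99994 to 0.99998 with the centred values used here, and their medians were -0.0212, 0.0217, 0.0507 and -0.0197 for control ESCs 1 to 4 and -0.0403, 0.0155, -0.0588 and 0.0796 for *L3mbtl2*-KD ESCs 1 to 4.

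Control spots and outlier spots were left out (123 to 294 outlier spots per array), no spot was saturated, log2 of the processed signal minus the array's 75th percentile was averaged over the spots of a probe, and 39429 probes remained. RefSeq accessions named 26055 probes for 19751 genes (GRCm38.p6). Probes entered the test if their signal stood well above background throughout one group or both. How several spots of a probe combine was not laid down beforehand. All spots were required at first. After counts of calls had been seen other rules were tried, and any spot was taken for a time because its number of probes was nearer that of an earlier processing of these data. The first rule was then restored, and any spot was kept as an alternative chosen after seeing the data. Of the 23505 probes tested 78 lacked a value on some array. Tests used limma 3.58.1 (lmFit, eBayes, two-sided, Benjamini-Hochberg over all probes tested) in R 4.3.3, and Python 3.11.15 with SciPy 1.17.1, pandas 2.3.3 and matplotlib 3.10.9. The script was tested on simulated data.

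For lists and neighbours the probe with the highest mean signal stood for a gene. Members and lists were chosen with earlier results of these data known. Named were all members, *L3mbtl2*, up to 3 called genes per direction and list with the largest change, every tested neighbour, and for each called member the 3 genes with the most similar profile. Other Rhox genes, *Btg1c*, *Dnmt3l*, *Dppa4*, *Ehmt2*, *Foxa2*, *Hesx1*, *Klf4*, *Nanog*, *Prdm1*, genes named for missing the background level, and second probes were named after their values were seen. Lists comprised germ-line, X-linked germ-line, trophoblast, PRD-class homeobox, methylation machinery and PCGF6-PRC1 genes, and embryonic stem cell, feeder, primitive endoderm, primordial germ cell, and Sertoli and Leydig cell markers.

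The slides held replicates 1 and 2, and 3 and 4, of both groups and were scanned on different days, and the groups lay at different positions on a slide. Replicate numbers in the labels were checked for pairing: deviations from the group means correlated at 0.38 to 0.58 between samples of the same number and at -0.44 to 0.25 between others, so the numbers pair the samples, and a replicate block was an alternative. The others were normexp (offset 50, on median spot and background signals), quantile normalization, the authors' table, other filters, slide as a block, an intensity trend, a one-way test at an unadjusted p, a 1.5-fold threshold, each array left out, each slide alone and, chosen after seeing the data, a one-way test with Benjamini-Hochberg adjustment (which the methods name), permutation within replicate numbers, the difference between slides, the germ-line list without *Ddx4* and the marker sums without their brightest probe. A planned comparison of each member's probes had nothing to vary, with 1 probe each. Protein sequences were not used here.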

Additional observations from a re-analysis of the deposited data

Results flagged for a closer look

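Among 140 groups of 4 arrays (70 probes), 9 held an array set apart from the others by Dixon's test at the 95% level. Chance gives this in about 1 of 20 groups. A *Rhox7a* probe that was not tested stood at a normalized log2 intensity of -3.03 on the array of control ESCs 3, with the other controls at -7.89 to -7.58. *Rhox4e* was at -5.15 in control ESCs 4, with the others at -4.72 to -4.68.

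The remaining 7 were outside the family. *Ctcfl* was at -3.32 in control ESCs 1 (others -4.68 to -4.51), *Sox17* at -2.74 in control ESCs 3 (others -2.52 to -2.49) and *Upf3b* at 1.06 in control ESCs 1 (others 0.75 to 0.80). In *L3mbtl2*-KD ESCs 1, *Fkbp6* was at -2.48 (others -3.05 to -2.96), *Dab2* at -4.41 (others -5.58 to -5.47) and *C1galt1c1* at -0.43 (others -0.66 to -0.62). *Xlr* was at -2.21 in *L3mbtl2*-KD ESCs 4 (others -2.50 to -2.47).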

How the results depend on the processing

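*Rhox10* stayed up-regulated and *Rhox5* down-regulated in limma under every alternative tried except slide 1 alone, where *Rhox5* was at -2.10 (limma adjusted p = 0.0610), *Rhox10* at 1.21 (0.116), *L3mbtl2* at -1.40 (0.0981), *Rhox6* at -0.056 and *Rhox9* at -0.16. With slide 1 alone, 2 samples a group, 0 members and 0 of all genes were called in either direction in limma, and at an unadjusted p under 0.05 the counts were 1 member up, 1 down, 319 genes up and 371 down. Outside the slides *Rhox5* lay between -1.89 and -1.85 and *Rhox10* between 1.11 and 1.48, and with 1 array left out between -1.96 and -1.73 and between 1.29 and 1.57.

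Normexp gave 194 genes up and 159 down, against 340 and 435, so the balance of calls turned; quantile normalization gave 387 and 363. The filter that asks for all 8 arrays left 288 genes down. At 1.5-fold 2 members were up, *Rhox1* joining *Rhox10*, with 700 genes up and 1009 down overall. Leaving out 1 array gave 298 to 371 up and 354 to 497 down. With the replicate block for the pairing, 358 genes were up and 466 down, and among the members 1 was up and 1 down; the PRD-class genes called down went from 1 to 2 with *Hesx1*, and in the other gene lists no call changed. A one-way test with Benjamini-Hochberg adjustment, chosen after seeing the data, gave 289 up and 325 down, with 1 member each way. With the background rule chosen after seeing the data (any spot), 23524 probes gave 340 and 440, and among the Sertoli and Leydig markers 1 gene was then down-regulated, with a median of -0.30.

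Signs also changed for genes that had not passed the test, among them *Ifitm3* at 0.13 in the main setting and -0.048 within slide 1, *Rhox3h* at -0.16 within slide 2 and -0.13 to 0.18 with 1 array left out, *Rhox4e* at 0.066 with normexp, 0.13 with quantile normalization, 0.015 within slide 1 and -0.17 to 0.075 with 1 array left out, *Rhox7a* at -0.065 to 0.29 with 1 array left out, and *Mcts1* at -0.016 with normexp, -0.021 with quantile normalization and -0.0017 within slide 2. Of the medians of gene lists, that of the PRD-class genes turned from -0.13 to 0.01 with normexp, that of the PCGF6-PRC1 subunits from 0.02 to -0.02 with quantile normalization, that of the neighbours from 0.02 to -0.02 with both and to -0.0017 within slide 2, and within slide 1 that of the primordial germ cell markers from 0.09 to -0.09 and that of the methylation machinery from 0.01 to -0.07. The causes were not tested. Signals near background limit *Rhox1*, *Rhox3h*, *Rhox4e* and *Rhox7a*. Dim controls limit the size of the rise for *Rhox2c* and for the *Rhox2h* probe that missed the background level there. The 4 arrays a group limit all values.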
